A study of Mus musculus with 22 samples.

Results

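The genes described here are 10 core components of the Notch pathway, taken by their gene symbols, from a choice made with earlier results of these data known: the ligands Dll1, Dll4, Jag1 and Jag2, the receptors Notch1, Notch2 and Notch4, and the target genes Hey1, Heyl and Hes1. Each was found by its Ensembl identifier in the GENCODE annotation of the mouse mm10 build, as 10 of the 49670 genes of the right ventricular table and of the 49671 genes of the left ventricular table. They were measured by bulk RNA sequencing in the right ventricle (RV) and left ventricle (LV) of CD1 mice, an outbred stock, which is the only genotype the labels give. Neonatal pulmonary artery banding (nPAB), a surgical narrowing of the vessel that the RV empties into, was made with a 30-gauge needle on postnatal day 1. The controls were Sham-operated on the same day, and all hearts were taken 7 days later. The 4 groups were RV Sham (n = 5), RV nPAB (n = 6), LV Sham (n = 5) and LV nPAB (n = 6), with an RV and an LV library from each of 11 mice, numbered 9 to 13 for Sham and 5, 6, 7, 8, 10 and 11 for nPAB.

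Notch receptors sit in the membrane of one cell and are bound by Delta-like and Jagged ligands on its neighbour. Binding leads to cleavage of the receptor, and the freed intracellular domain enters the nucleus and, with the DNA-binding protein RBPJ and a Mastermind coactivator, turns on genes of the Hes and Hey families, which encode transcriptional repressors. In the heart, Notch signalling is best known in the endothelium and endocardium, where Dll4, Notch1 and Hey1 mark arterial vessels, and in the trabecular and compact layers of the growing ventricular wall.

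Recovered whole reads summed to between 7.11 and 11.3 M per library. In nPAB mice 6 and 7 the RV and LV libraries carried transcripts of opposite sex, so that by sex neither labelled pair matches as 1 animal, and the results of the called pathway genes are also given below without these mice. RV nPAB libraries of mice 6, 8 and 11 held more of the summed atrial markers Myl7, Myl4 and Sln than any RV Sham library. The sums spanned 736 to 9729 normalized counts in RV nPAB and 144 to 2474 in RV Sham, against 351 to 2081 in LV nPAB and 472 to 1465 in LV Sham. Ventricular and endothelial markers were present in every library, the 8 cardiomyocyte markers summing to at least 481322 normalized counts and the 10 pan-endothelial markers to at least 11817. In bulk RNA, fewer cells of a type and less RNA per cell cannot be told apart.

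Promoters are shown for Notch2, the receptor that passed the test below, and for Hey2, a pathway target outside the set of 10 whose change is set beside that of Hey1. Both are the 250 bases before the RefSeq start (GRCm38.p6), printed 5′ to 3′ on the gene's own strand, with capitals marking TGGGAA or its reverse complement TTCCCA, the core of the RBPJ recognition sequence.
Notch2: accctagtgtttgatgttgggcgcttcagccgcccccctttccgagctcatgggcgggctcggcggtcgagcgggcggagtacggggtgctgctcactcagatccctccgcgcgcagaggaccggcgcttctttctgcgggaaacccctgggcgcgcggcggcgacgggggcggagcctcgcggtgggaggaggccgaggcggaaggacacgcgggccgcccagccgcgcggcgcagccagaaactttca
Hey2: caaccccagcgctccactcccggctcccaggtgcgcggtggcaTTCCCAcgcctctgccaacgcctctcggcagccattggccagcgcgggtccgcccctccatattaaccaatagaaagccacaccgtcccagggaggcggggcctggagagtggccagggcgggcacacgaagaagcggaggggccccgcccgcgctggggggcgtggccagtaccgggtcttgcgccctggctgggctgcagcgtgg
The Notch2 stretch lies at chr3:98013288-98013537 on the plus strand and holds no match. The Hey2 stretch lies at chr10:30842784-30843033 on the minus strand and holds 1 match, in the reverse orientation, 207 bases before the start. A further Hey2 match spans the start itself and runs past the printed bases, which gives that promoter 2 in all. Over windows of 250 bases before and 50 after the start, searched on both strands, TGGGAA occurred in 0 of the 8 windows of the 7 members in the table and in 15 of the 54 windows of 39 other pathway genes, against 25.6% of all 32851 windows. CACGTG, an E-box that reads the same on both strands and whose final TG can also begin TGGGAA, occurred in 0 of 8 and 5 of 54, against 7.15% of all windows. The targets Hey1, Heyl and Hes1 had no window among those searched, so the member counts cover ligands and receptors only. These are matches of letters only, and no binding was measured.

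The members differed widely in level. Per length, as recovered reads per kilobase of exon per M reads, RV Sham libraries held most Hes1 (16.3 ± 2.44, SD, n = 5) and next Heyl (8.97 ± 1.16), and the libraries of these genes did not overlap each other or those of any other member. Dll4 (4.44 ± 1.25), Notch2 (3.18 ± 0.326), Hey1 (3.15 ± 0.698), Jag1 (2.71 ± 0.592), Notch4 (2.36 ± 0.627) and Notch1 (2.14 ± 0.430) followed, each overlapping its neighbour in this order. Jag2 (1.02 ± 0.322) and Dll1 (0.592 ± 0.124) were lowest, and their libraries overlapped. LV Sham gave the same order except that Hey1 (3.55 ± 0.950) stood above Notch2 (3.02 ± 0.474), with overlapping libraries. In banded mice only Hes1 and Heyl stood above Hey1 in both ventricles, with Hey1 at 7.82 ± 2.64 (n = 6) in the RV and 7.76 ± 2.48 (n = 6) in the LV, overlapping Heyl in both and overlapping Dll4 in the RV but not in the LV.

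**Figure D1:**
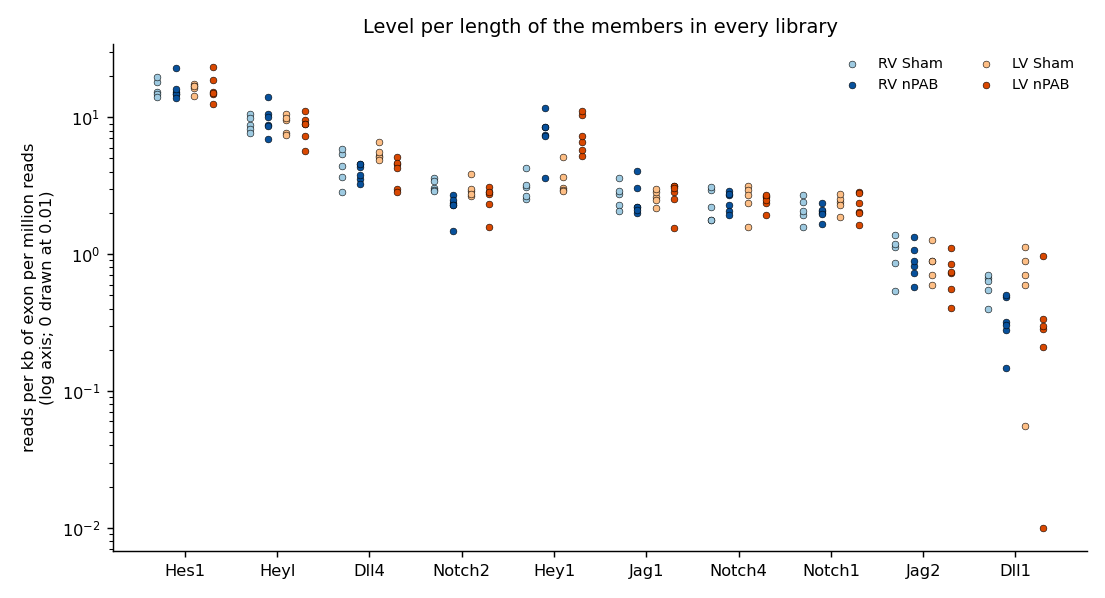
Level per length of each member in every library, in reads per kilobase of exon per M reads on a log axis, ordered by the RV Sham mean, with 1 point per library and a value of 0 drawn at 0.01. Hes1 and Heyl have the highest means in every group, and Hey1 averages 7.82 in RV nPAB against 3.15 in RV Sham.

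Within a ventricle, nPAB was compared with Sham to ask what banding changed in the loaded RV and in the LV of the same hearts. All 10 members had a mean normalized count of at least 10 in both tables and were tested. In the RV, Hey1 rose, Notch2 fell and 8 members did not pass the test. In the LV, Hey1 rose, 0 members fell and 9 did not pass. The background was large: of 13660 genes tested in the RV, 11.1% rose and 10.8% fell, and of 13528 tested in the LV, 4.76% rose and 4.55% fell (limma, Benjamini-Hochberg adjusted p under 0.05), so 1 of 10 in a direction is near the share over all genes in the RV. The median log2 fold change of the 10 members was 0.019 in the RV and -0.020 in the LV, beside 5.16e-05 and -0.0077 over all genes tested. Groups without overlap between their libraries occurred for 1 member in the RV, Notch2, against 12.9% of all genes, and for 1 member in the LV, Hey1, against 6.53%.

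**Figure D2:**
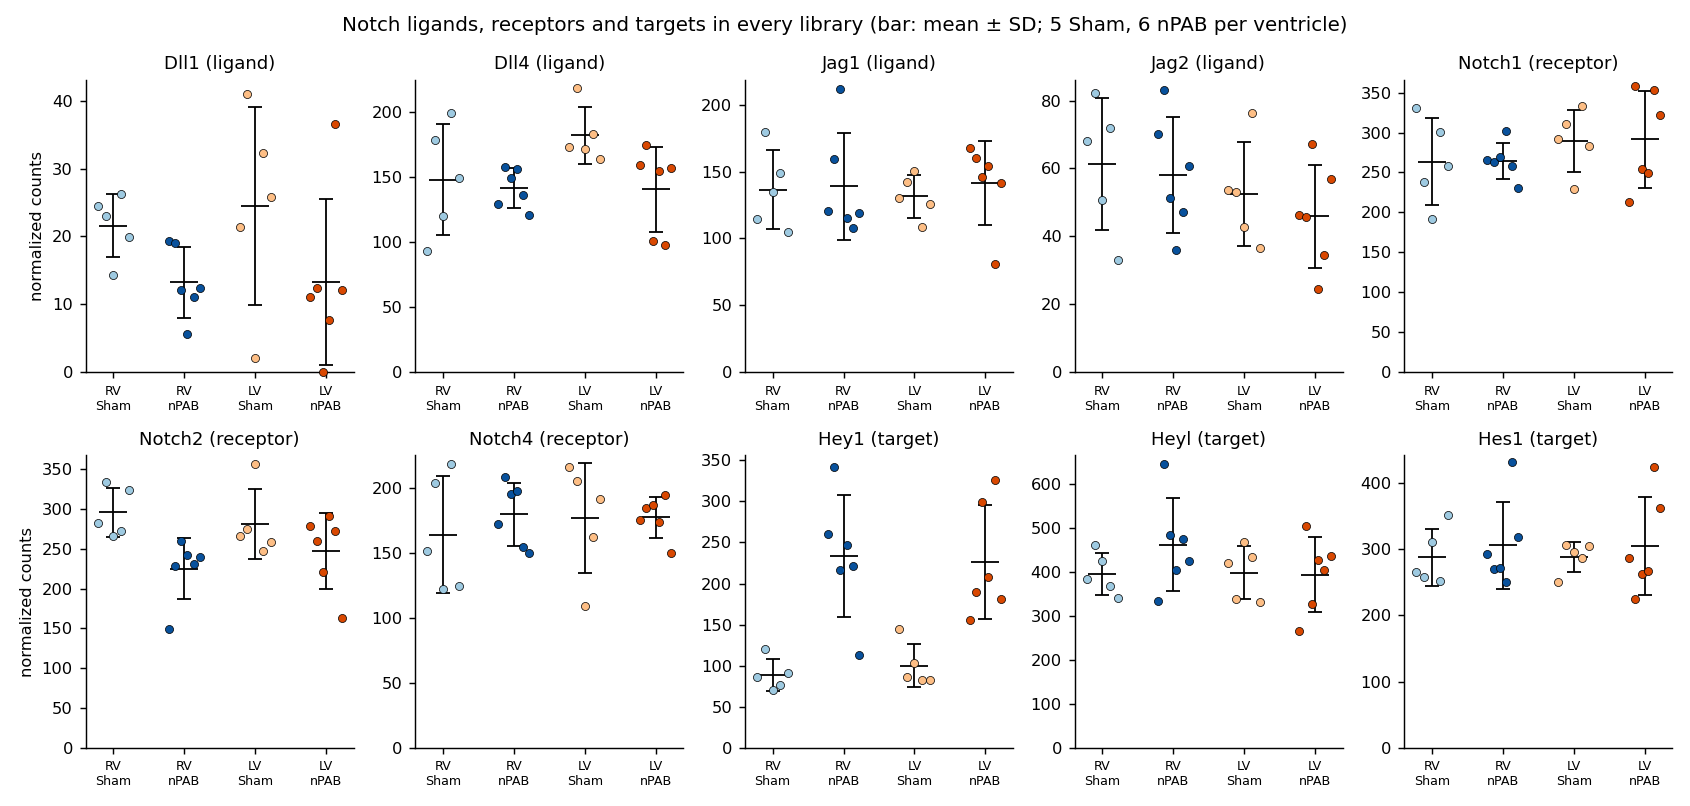
Normalized counts of each member in every library of the 4 groups, with the mean and SD as bars (5 Sham and 6 nPAB libraries per ventricle). Hey1 lies between 113 and 342 in RV nPAB against 69.9 to 121 in RV Sham, while the libraries of the ligands, Notch1, Notch4, Heyl and Hes1 overlap between nPAB and Sham in both ventricles.

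Among the ligands, Dll4, the Delta-like ligand of arterial and sprouting endothelium, showed no difference in the RV that passed the test. RV Sham libraries of mice 9 to 13 held 93.5, 179, 120, 199 and 149 normalized counts, and RV nPAB libraries ranged from 121 to 158 with a median of 142. All RV nPAB libraries lay within the Sham range, and the log2 fold change was -0.02 (95% interval -0.40 to 0.36, adjusted p = 0.953). In the LV, Sham libraries held 173, 219, 171, 183 and 164, and nPAB libraries ranged from 98.0 to 174 with a median of 156. In 5 of the 6 LV nPAB mice Dll4 was below every Sham library. The LV log2 fold change was -0.40 ± 0.17 (SE; 95% interval -0.76 to -0.04), which had an unadjusted p of 0.0328 in limma but did not pass after adjustment over all genes (adjusted p = 0.159, and at least 0.114 in each of 25 alternatives).

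Dll1, the Delta-like ligand best known from somite and muscle progenitors, was the least abundant member, with 6 to 27 reads per RV library and 0 to 38 per LV library. RV Sham libraries held 24.4, 23.0, 14.3, 26.3 and 20.0 normalized counts, and RV nPAB libraries ranged from 5.55 to 19.3 with a median of 12.2. In 4 of the 6 RV nPAB mice the value was below every Sham library, and the log2 fold change was -0.73 ± 0.37 (95% interval -1.51 to 0.05, adjusted p = 0.176). LV Sham libraries held 21.4, 41.1, 2.03, 32.3 and 25.8, and LV nPAB libraries ranged from 0 to 36.5 with a median of 11.6. The library at 0, from mouse 7, allows up to 2.59 normalized counts, the value of 3 reads there and a limit of counting error only. The LV interval ran from -2.81 to 0.76 about a log2 fold change of -1.02 (adjusted p = 0.494). That interval allows a fall of several fold, no change or a rise.

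Jag1, the Jagged ligand of vessel walls and the outflow tract, had 115, 180, 135, 149 and 104 normalized counts in RV Sham and 108 to 212 (median 120) in RV nPAB. Its log2 fold change was 0.01 (95% interval -0.39 to 0.41, adjusted p = 0.979) in the RV. In the LV, Jag1 libraries held 130.5, 143, 150, 109 and 126 in Sham and 80.7 to 168 (median 150.1) in nPAB, a log2 fold change of 0.08 (-0.31 to 0.46, adjusted p = 0.839). Jag2, its relative, stood at 61.2 ± 19.5 (SD, n = 5) in RV Sham and 58.1 ± 17.0 (n = 6) in RV nPAB, with a log2 fold change of -0.06 (-0.61 to 0.50, adjusted p = 0.906). In the LV Jag2 stood at 52.5 ± 15.2 and 45.9 ± 15.2, with a log2 fold change of -0.22 (-0.80 to 0.37, adjusted p = 0.685). The groups of both Jagged genes overlapped in both ventricles.

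Among the receptors, Notch2, which in the heart is known from smooth muscle and the developing ventricular wall, was lower in the banded RV. It is a protein-coding gene on the plus strand at chr3:98013527-98150361 (mm10). RV Sham libraries of mice 9 to 13 held 282, 334, 267, 272 and 324 normalized counts. RV nPAB libraries of mice 5, 6, 7, 8, 10 and 11 held 149.7, 229, 260, 242, 231 and 240. All 6 banded libraries lay below all 5 Sham libraries, though the highest nPAB library (260) and the lowest Sham library (267) were close. The means were 296 ± 31.0 (SD, n = 5) in Sham and 225 ± 38.6 (n = 6) in nPAB, a log2 fold change of -0.41 ± 0.14 (SE; 95% interval -0.70 to -0.12) or 0.754 times the Sham level, with an adjusted p of 0.0416. The call was marginal: it held in 12 of 26 alternatives, with adjusted p values from 0.0283 to 0.102 and log2 fold changes from -0.50 to -0.29. It was lost without any 1 of RV Sham mice 9, 10, 12 and 13 or RV nPAB mice 5, 6 and 10. Without RV nPAB mouse 5, the lowest library, the log2 fold change was -0.29 (adjusted p = 0.085). With the replicate block that pairs the ventricles of a mouse, the adjusted p was 0.055. Without mice 6 and 7 the log2 fold change was -0.47 (adjusted p = 0.0377), and without mice 6, 8 and 11 it was -0.50 (adjusted p = 0.070).

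In the LV, Notch2 libraries held 267, 275, 357, 247 and 258 in Sham and 163 to 291 (median 266) in nPAB. These groups overlapped, and the log2 fold change of -0.19 ± 0.15 (95% interval -0.51 to 0.12) did not pass the test (adjusted p = 0.458). The difference between the ventricles' responses, RV minus LV, was -0.21 ± 0.24 on the log2 scale (95% interval -0.73 to 0.30, adjusted p = 0.793), so the fall in the RV was not shown to differ from the value in the LV. The difference was -0.29 without mice 6 and 7 (adjusted p = 0.707), and between -0.35 (without nPAB mouse 11) and -0.06 (without nPAB mouse 5) when each mouse was left out.

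Notch1, the principal receptor of endothelium and endocardium, was close to level in mean. RV Sham libraries held 330, 238, 191, 301 and 258 normalized counts and RV nPAB libraries 231 to 302 (median 264), a log2 fold change of 0.03 (95% interval -0.25 to 0.31, adjusted p = 0.913). LV Sham libraries held 292, 310, 229, 334 and 283 and LV nPAB libraries 213 to 358 (median 288), a log2 fold change of -0.01 (-0.31 to 0.30, adjusted p = 0.986). Notch4, a receptor largely restricted to endothelium, stood at 164 ± 44.9 in RV Sham and 180.0 ± 24.3 in RV nPAB, and at 177 ± 42.7 and 178 ± 15.8 in the LV. Its log2 fold changes were 0.16 (-0.19 to 0.52, adjusted p = 0.545) and 0.04 (-0.31 to 0.39, adjusted p = 0.910). Every nPAB library of Notch4 lay within the Sham range in both ventricles.

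Among the targets, Hey1, a basic helix-loop-helix repressor induced by Notch in arterial endothelium and endocardium, rose in both ventricles. It is a protein-coding gene on the minus strand at chr3:8663359-8667256 (mm10). RV Sham libraries of mice 9 to 13 held 86.0, 121, 69.9, 75.9 and 91.6 normalized counts. RV nPAB libraries of mice 5, 6, 7, 8, 10 and 11 held 261, 342, 216, 247, 221 and 113. The banded libraries were above every Sham library in 5 of 6 mice, mouse 11 lying just under Sham mouse 10. The means were 88.8 ± 19.7 (SD, n = 5) and 233 ± 74.4 (n = 6), a log2 fold change of 1.34 ± 0.22 (SE; 95% interval 0.87 to 1.81), or 2.53-fold, with an adjusted p of 4.06e-04. In the LV, Sham libraries held 144, 85.8, 104, 82.9 and 82.9, and nPAB libraries held 156, 189, 299, 207, 326 and 181 in the same order of mice. All 6 banded LV libraries were above all 5 Sham libraries. The LV means were 99.8 ± 26.2 (n = 5) and 226 ± 69.3 (n = 6), a log2 fold change of 1.16 ± 0.20 (95% interval 0.73 to 1.58), or 2.23-fold, with an adjusted p of 0.00160.

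Hey1 passed the test in all 26 alternatives in the RV, with log2 fold changes from 1.19 to 1.53, and in all 25 in the LV, at least 1.04 in each. Without mice 6 and 7 its log2 fold change was 1.19 (adjusted p = 0.00209) in the RV and 1.09 (adjusted p = 0.010) in the LV. The 3 RV nPAB libraries whose atrial marker sums lay within the Sham range, from mice 5, 7 and 10, held 261, 216 and 221 normalized counts of Hey1, all above the highest Sham library, and without mice 6, 8 and 11 the log2 fold change was 1.40 (adjusted p = 4.53e-04). Scaled to the pan-endothelial markers, Hey1 changed by 1.40 in the RV and 1.29 in the LV, and scaled to the cardiomyocyte markers by 1.34 and 1.09. In the RV, 262 genes of 13660 had a higher log2 fold change than Hey1, and in the LV 186 of 13528.

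**Figure D3:**
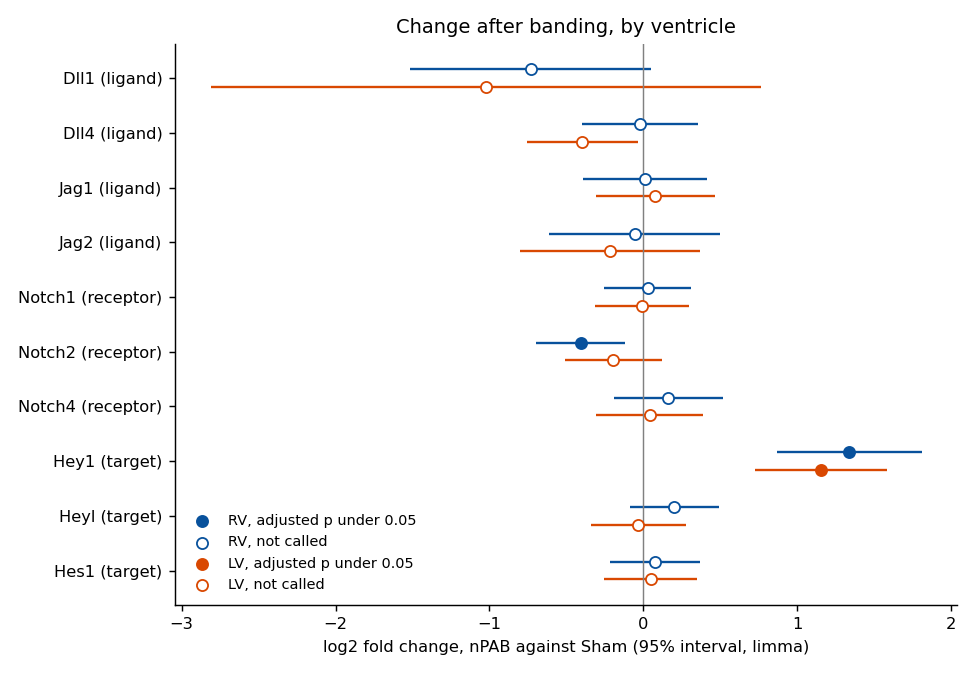
Log2 fold change of each member, nPAB against Sham, with its 95% interval from limma, in the RV (blue) and the LV (orange), with filled points for an adjusted p under 0.05. Hey1 is filled in both ventricles (1.34 and 1.16) and Notch2 in the RV alone (-0.41), while Dll1 lies at -0.73 and -1.02 with the widest intervals, which include 0.

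The other targets did not follow Hey1 past the test. Heyl, the Hey relative known from smooth muscle and pericytes, held 383, 462, 425, 368 and 340 normalized counts in RV Sham and 334 to 646 (median 451) in RV nPAB, where 3 of 6 libraries were above and 1 below every Sham library. Its log2 fold change was 0.20 ± 0.14 (95% interval -0.09 to 0.49, adjusted p = 0.325) in the RV and -0.03 ± 0.15 (-0.34 to 0.28, adjusted p = 0.918) in the LV. Hes1, a repressor expressed in many cell types and the member with the highest level per length, held 266, 258, 311, 252 and 351 normalized counts in RV Sham and 251 to 431 (median 282) in RV nPAB. Its log2 fold change was 0.08 (-0.22 to 0.37, adjusted p = 0.749) in the RV and 0.05 (-0.25 to 0.35, adjusted p = 0.876) in the LV. For both genes in both ventricles, the intervals lie below the Hey1 estimate of the same ventricle. No test of Hey1 against the other targets was made.

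The question of whether a member changed by a different amount in the 2 ventricles was put to the difference RV minus LV within each mouse, and 0 of the 10 members passed (limma). At an unadjusted p under 0.05 the count was also 0. Of the 10 members edgeR called 0, and DESeq2 called 0 of the 9 to which it gave an adjusted p. Over all genes 1 of 13364, or 0.00748%, passed in limma, with 1474 at an unadjusted p under 0.05 (edgeR called 158 and DESeq2 249). The one gene called, Aqp4, is no member and is named for having been counted. For Hey1 the difference was 0.18 ± 0.34 (95% interval -0.55 to 0.92, adjusted p = 0.896). It was 0.099 without mice 6 and 7 (adjusted p = 0.941), and leaving out each mouse moved it between 0.017 (without nPAB mouse 6) and 0.34 (without Sham mouse 10). It was under 0.1 also without nPAB mouse 5 (0.039) or Sham mouse 9 (0.038) or 11 (0.082), and over 0.28 without nPAB mouse 7 (0.281), 10 (0.299) or 11 (0.322). Leaving out mice 6 and 7, Hey1 was higher in the RV than in the LV in nPAB mice 5 and 8 and lower in mice 10 and 11, on scales that were normalized separately. With all mice, the difference furthest from 0 among the members was that of Dll4, at 0.38 ± 0.23 (-0.12 to 0.88, adjusted p = 0.588). The difference of Dll1, the member with the fewest reads, was 0.29 with all mice and -0.53 without mice 6 and 7.

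**Figure D4:**
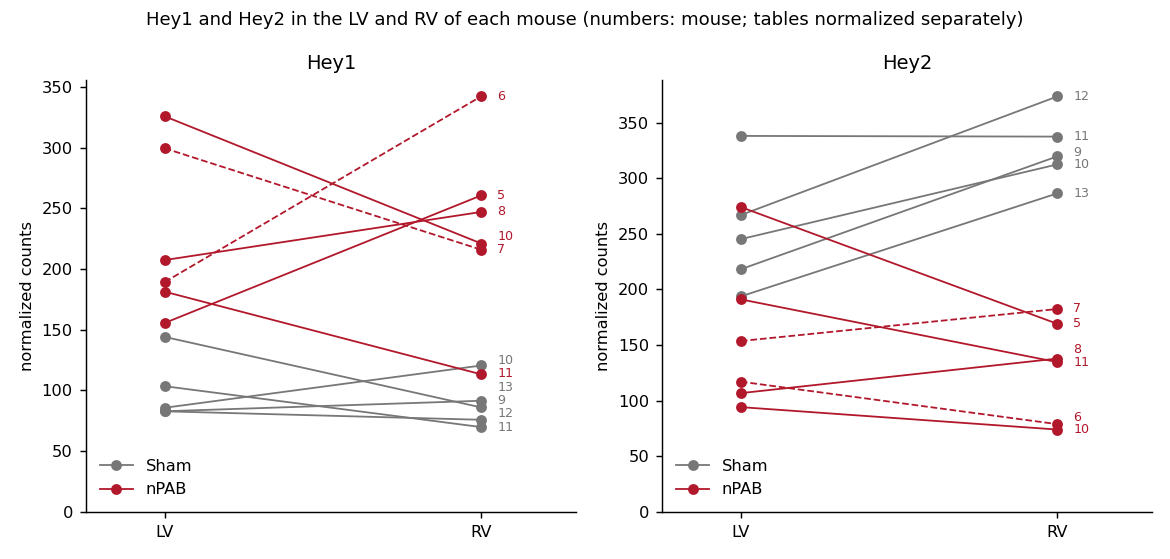
Normalized counts of Hey1 and Hey2 in the LV and RV of each mouse, joined by a line, with Sham in grey and nPAB in red. Dashed lines join the libraries of mice 6 and 7, whose sexes disagree. Hey1 is above every Sham library of the same ventricle in 6 of 6 banded LV and 5 of 6 banded RV libraries. Hey2 is lower in every banded RV (74.0 to 182 against 286 to 374 in Sham).

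A list of 49 other genes of the pathway was set beside the members, of which 39 reached the minimum level in the RV and 40 in the LV. In the RV 0 rose, 6 fell and 33 did not pass, where 11.1% of all genes rose and 10.8% fell. In the LV 2 rose, 2 fell and 36 did not pass, where 4.76% rose and 4.55% fell. In the difference between ventricles 0 of 39 passed. The median log2 fold change of the list was 0.0059 in the RV and -0.021 in the LV. Below the minimum level in both tables were the ligands Dll3, Dlk2 and Dner, Neurl1a, Dtx1 and the targets Hes2, Hes3, Hes5 and Hes7, and Nrarp reached it in the LV only.

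Hey2, the Hey gene of compact ventricular myocardium, fell in the RV while Hey1 rose. RV Sham libraries held 320, 312, 337, 374 and 286 normalized counts and RV nPAB libraries 74.0 to 182 (median 136), without overlap. The log2 fold change was -1.40 ± 0.21 (adjusted p = 1.77e-04), called in all 26 alternatives, with -1.29 (adjusted p = 0.00382) without mice 6, 8 and 11 and -1.39 (adjusted p = 1.15e-04) without mice 6 and 7. In the LV, Hey2 held 218, 245, 338, 267 and 194 in Sham and 94.2 to 274 (median 135) in nPAB, with 5 of 6 banded libraries below every Sham library. The LV log2 fold change of -0.76 ± 0.24 did not pass (adjusted p = 0.0569), and did with the replicate block (adjusted p = 0.0321) or without LV nPAB mouse 5 (-0.95, adjusted p = 0.00587) or mouse 11 (-0.84, adjusted p = 0.0442). It passed in 6 of 25 alternatives, and without mice 6 and 7 it was -0.71 (adjusted p = 0.173). The difference between the ventricles was -0.64 ± 0.21, with an unadjusted p of 0.0104 and an adjusted p of 0.323. Over 26 alternatives, among them leaving out mice 6 and 7, this difference ranged from -0.76 to -0.55 and passed in 0.

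Among the ligands outside the set, Dlk1, a non-canonical ligand that lacks the receptor-binding domain of the Delta family and is best known from fetal tissues, fell in the RV. RV Sham libraries held 59.5, 16.4, 50.8, 51.6 and 47.0 normalized counts and RV nPAB libraries 1.02 to 13.0 (median 8.43), all 6 below all Sham libraries. Its log2 fold change was -2.51 ± 0.49 (adjusted p = 0.00122) in the RV and -2.04 ± 0.66 in the LV, where it did not pass (adjusted p = 0.0698) although all 6 nPAB libraries were again below all Sham libraries. The LV value passed with the replicate block (adjusted p = 0.0230) and without LV nPAB mouse 6 (-1.43, adjusted p = 0.0190) or mouse 10 (-2.37, adjusted p = 0.0305), in 7 of 24 alternatives. Without mice 6 and 7 Dlk1 changed by -2.67 (adjusted p = 0.00192) in the RV and -1.41 (adjusted p = 0.0436) in the LV. Notch3, the receptor of pericytes and smooth muscle that is not among the 10, rose in the LV from 277 ± 16.4 (n = 5) to 350.2 ± 29.5 (n = 6), with all 6 nPAB libraries above Sham and a log2 fold change of 0.34 ± 0.10 (adjusted p = 0.0424). That call held in 14 of 25 alternatives, and was lost without any 1 of LV nPAB mice 6, 7, 8 and 11 or LV Sham mice 9, 10, 12 and 13 (adjusted p up to 0.101). It was also lost when scaled to the cardiomyocyte markers (0.27, adjusted p = 0.304), with no filter (adjusted p = 0.122) and without mice 6 and 7 (0.34, adjusted p = 0.103). In the RV Notch3 changed by -0.01 (adjusted p = 0.953), and the difference of -0.35 ± 0.12 between ventricles had an adjusted p of 0.326. Over 26 alternatives, among them leaving out mice 6 and 7, this difference ranged from -0.46 to -0.28 and passed in 0.

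Of the 10 protease genes that cut Notch or its precursor, 0 passed in the RV and 1 in the LV, where Furin, which processes the receptor precursor, rose by 0.41 ± 0.11 (adjusted p = 0.0226). The Furin call held in 19 of 25 alternatives. It was lost when scaled to the cardiomyocyte markers (0.35, adjusted p = 0.219), without mice 6 and 7 (0.30, adjusted p = 0.119), without LV nPAB mouse 7 (0.34, adjusted p = 0.0574) or LV Sham mouse 10 or 12 (adjusted p = 0.0604 and 0.0625), and without the variance trend (adjusted p = 0.0588). Of 9 genes of the nuclear complex, Ep300, a histone acetyltransferase recruited by the complex, fell in the RV by 0.37 ± 0.09 on the log2 scale (adjusted p = 0.00662). Spen, a corepressor that binds RBPJ, fell in both ventricles, by 0.42 ± 0.10 (adjusted p = 0.00591) in the RV and by 0.54 ± 0.12 (adjusted p = 0.00918) in the LV, with no overlap in either. Without mice 6 and 7, Ep300 changed by -0.40 (adjusted p = 0.00930) in the RV and Spen by -0.44 (adjusted p = 0.0120) and -0.59 (adjusted p = 0.0185), and scaled to the pan-endothelial markers the LV value of Spen was -0.41 (adjusted p = 0.0892). Rbpj itself did not pass, with log2 fold changes of -0.24 (adjusted p = 0.330) and -0.13 (adjusted p = 0.671).

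Of 7 measured turnover genes, Fbxw7, the ubiquitin ligase subunit that marks the Notch intracellular domain for degradation, fell in both ventricles. RV Sham libraries held 790 to 1017 normalized counts and RV nPAB libraries 369 to 724, without overlap, a log2 fold change of -0.79 ± 0.14 (adjusted p = 7.78e-04), and -0.78 (adjusted p = 1.33e-04) without mice 6 and 7. Fbxw7 changed by -0.51 (adjusted p = 0.0102) without mice 6, 8 and 11, the smallest fall among 26 alternatives, all of which kept the call. In the LV it fell by 0.36 ± 0.10 (adjusted p = 0.0298), a call that held in 13 of 25 alternatives, not with the replicate block (adjusted p = 0.0541) or scaled to the pan-endothelial markers (-0.23, adjusted p = 0.285). It was lost too with no filter (adjusted p = 0.0542), without the variance trend (adjusted p = 0.0916) and without mice 6 and 7 (-0.29, adjusted p = 0.113). The LV call was also lost without any 1 of LV nPAB mice 6, 7 and 8 or LV Sham mice 9, 10, 11 and 13 (adjusted p 0.0526 to 0.0766). Dtx4, a Deltex ubiquitin ligase, fell in the RV by 0.65 ± 0.20 (adjusted p = 0.0274), a call that held in 19 of 26 alternatives, among them without mice 6 and 7 (-0.78, adjusted p = 0.0172). It was lost without RV nPAB mouse 8 (-0.52, adjusted p = 0.0556) or RV Sham mouse 9, 10 or 12 (adjusted p 0.0529 to 0.0745), without mice 6, 8 and 11 (adjusted p = 0.0665), with no filter (adjusted p = 0.0520) and scaled to the cardiomyocyte markers (adjusted p = 0.0538). Among the 5 glycosyltransferases and the 3 measured ubiquitin ligases that act on ligands, 0 passed in either ventricle.

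**Figure D5:**
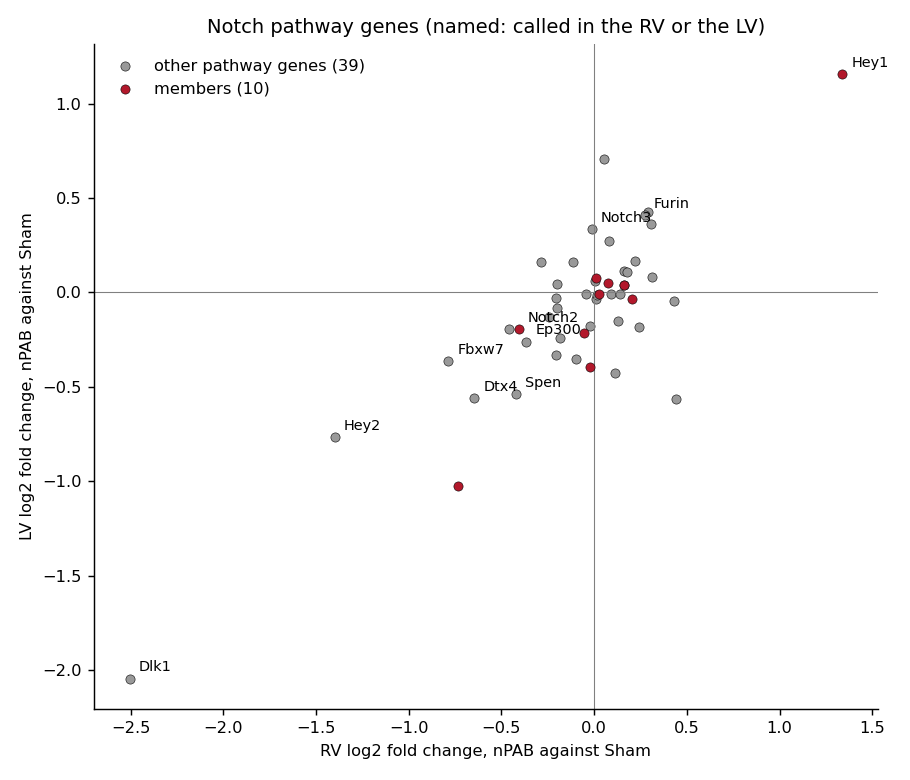
Log2 fold change, nPAB against Sham, in the RV (x axis) and LV (y axis) for the 10 members (red) and the 39 other pathway genes measured in both tables (grey), with names on genes called in at least 1 ventricle. Hey1 lies alone at the upper right (1.34 and 1.16), and Hey2 and Dlk1 lie at the lower left.

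Markers of endothelial cells, among those in which Hey1 is known, were measured beside it. Of 10 pan-endothelial markers, Eng rose and Tek fell in both ventricles and 8 did not pass, and the summed level ranged from 13233 to 15269 normalized counts in RV Sham and 12530 to 15076 in RV nPAB. In the LV these sums ranged from 13238 to 14943 in Sham and 11817 to 15248 in nPAB. Of 6 arterial markers, Sox17 (log2 fold change 0.75 ± 0.19, adjusted p = 0.00857) and Unc5b (0.49 ± 0.16, adjusted p = 0.0396) rose in the RV, and 0 passed in the LV, where Sox17 changed by 0.70 ± 0.22 (adjusted p = 0.0517). Counting both directions, 4 of 6 (Sox17, Efnb2, Gja4 and Gja5) had an unadjusted p under 0.05 in limma in the LV, as did 3334 of all 13528 genes tested. The median LV log2 fold change of the 6 was 0.096. The arterial sum ranged from 1123 to 1720 in RV Sham and 1395 to 2143 in RV nPAB, and from 1178 to 1390 and 1306 to 1558 in the LV. The part of arterial endothelial content in the Hey1 result was not tested.

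Markers of the mural and muscle cells in which Notch2, Notch3, Heyl and Hey2 are known were measured too, with calls by limma. Of 6 pericyte markers, Cspg4 rose (log2 fold change 0.74) and Abcc9 (-0.84) and Vtn (-1.51) fell in the RV, and Abcc9 fell in the LV (-0.53). Their sums ranged from 23936 to 33290 normalized counts in RV Sham and 22644 to 29622 in RV nPAB, and from 24577 to 32270 and 23369 to 29691 in the LV. Of 4 smooth muscle markers, Cnn1, a calponin, rose in the RV (2.68) and the LV (0.94), while the sums overlapped at 3111 to 10000.5 and 2286 to 6352 in the RV and at 2368 to 6551 and 2883 to 5818 in the LV. Of 8 cardiomyocyte markers, Actc1 (0.47) and Actn2 (0.52) rose and Tnni3 (-0.26), Ryr2 (-0.32) and Pln (-0.64) fell in the RV, and Actc1 (0.32) and Actn2 (0.28) rose in the LV. The cardiomyocyte sums ranged from 504417 to 609640 in RV Sham and 481322 to 627992 in RV nPAB, and from 547721 to 637907 and 528066 to 751127 in the LV. Of 4 atrial markers, Myl1, which is not in the atrial sum given above, rose in the RV (2.03) and the LV (1.64). The other 3 did not pass in either ventricle, and the median log2 fold change of the 4 was 1.84 in the RV and -0.057 in the LV. The part of these cells in the results for Notch2, Notch3, Hey1 and Hey2 was not tested.

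Of the 10235 genes that averaged 50 or more in both tables, those most like Hey1 over the 22 libraries, as deviations from each table's mean, were Klf4 (Pearson r = 0.914), a zinc-finger transcription factor, Bhlhe40 (r = 0.902), a basic helix-loop-helix repressor, and Sik1 (r = 0.895), a salt-inducible kinase. In the RV their log2 fold changes were 0.86, 1.69 and 1.77, and in the LV 0.76, 1.26 and 1.35, all past the test. Those most like Notch2 were Itih5 (r = 0.779), Psd3 (r = 0.775) and Aldh1a2 (r = 0.758), with RV log2 fold changes of -0.54, -0.56 and -0.61, past the test in the RV and not in the LV. These correlations describe libraries that share the contrast between nPAB and Sham.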

How the data were processed

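RNA came from whole ventricular tissue (Qiagen RNeasy Plus Mini, Revelo libraries), per the labels' protocols. Cutadapt, featureCounts, DESeq2 and mm10 appear in the submitters' processing notes. The aligner is, like the strand setting, not given in the sources used here, which leaves overlapping and antisense genes uncertain. The deposited values are a signal: per the labels, each is a gene's count over the library's DESeq2 size factor, scaled separately in the LV and RV tables. Every value was a whole multiple of 1 read within 0.001, and the reads recovered this way served for depth and for edgeR 4.0.16 and DESeq2 1.42.0.

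For the main tests limma 3.58.1 (R 4.3.3), with the trend and robust settings of eBayes, was fitted to log2(value + 1), a scale that understates changes of low genes. Genes averaging 10 or more entered, tests were two-sided, and p was adjusted by Benjamini-Hochberg over all genes tested with a threshold of 0.05. Fits were made within each ventricle and on RV minus LV per mouse. Only the limma step was tested on simulated counts, in which the RV and LV of a mouse were simulated independently. By the labels, equal numbers in the titles mark the ventricles of 1 mouse. In 9 mice the deviations from the group means correlated between the 2 ventricles at 0.132 to 0.383 and each RV matched its own LV best, while mouse 6 (0.172) and mouse 7 (0.0548) of the nPAB group did not. Over 50 pairs of libraries within groups, reads differed beyond sampling noise (chi-square at least 7.07 per degree of freedom). Litters are not stated, and all libraries carry batch label 1.

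The members, the other pathway genes and the marker lists were chosen with earlier results of these data known. Every member is described. From the other lists the genes called in a comparison are named, and for each called member the 3 genes most like it. Rbpj and any gene said to be no member are named after their values were seen. The alternatives concerned the pseudocount (0.5, 5), the filter, the scaling, the variance model, library weights, a sex term, the block, the count tool, and leaving out each library or mice 6 and 7. Leaving out mice 6, 8 and 11 was added after seeing the data. Figures used matplotlib 3.10.9. Promoters came from RefSeq (GRCm38.p6), and coordinates are 1-based.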

Additional observations from a re-analysis of the deposited data

Results flagged for a closer look

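In 4 of the 40 groups of member values, 1 library stood apart from the others by a gap that is large for the range of its group (Dixon's test at the 95% level), where chance gives about 1 in 20. In RV nPAB, Notch2 was lowest in mouse 5 at 149.7 normalized counts, while the other 5 libraries held 229 to 260. In LV Sham, Notch2 was highest in mouse 11 at 357, where the others held 247 to 275. In LV nPAB mouse 10, Dll1 was highest at 36.5 normalized counts and Jag1 was lowest at 80.7. The same mouse had the highest LV Hey1, at 326.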

How the results depend on the processing

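Hey1 kept its direction and its call in all 26 alternatives in the RV and all 25 in the LV. The count of members called in the LV stayed at 1 and in the difference at 0 in every alternative. The RV count of 2 became 1, through the loss of Notch2, with no filter on low values, scaled to pan-endothelial or to cardiomyocyte markers, without the variance trend, with a sex term, without RV nPAB mice 6, 8 and 11, and with the replicate block, and ranged from 1 to 2 when each library was left out. The cause was not tested. In a paired analysis, the replicate block changed no other member's call and called 3151 RV genes (2999 without it) and 1520 LV genes (1260 without it). Genes called moved by more than 1.5 times to 1760 in the RV (without mice 6, 8 and 11, a setting with fewer samples), to 665 (cardiomyocyte scaling), 739 (no variance trend) and 668 (without mice 6 and 7) in the LV, and in the difference between 0 and 249 (DESeq2), with 35 at a filter of 50, 29 without mice 6 and 7 and 158 by edgeR. In the difference the count was 5 with no replicate block, 20 without nPAB mouse 7, 11 without nPAB mouse 6, also 11 with the sex term and without mice 6 and 7 together, 9 with library weights, and 4 and 3 with cardiomyocyte and pan-endothelial scaling. Pan-endothelial scaling moved the LV median log2 fold change of all genes from -0.0077 to 0.12. It moved the share of LV calls that rose from 51.1% to 84.3%, and the RV share from 50.7% to 62.6%. Cardiomyocyte scaling moved the LV share to 34.0%.

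The values that changed sign under an alternative were of members not called. Under pan-endothelial scaling the log2 value turned for Dll4 (0.041) and Jag2 (0.0031) in the RV, for Notch1 (0.13) and Heyl (0.099) in the LV, and for Notch1 (-0.039) and Hes1 (-0.044) in the difference. Cardiomyocyte scaling turned Notch4 (-0.021) and Hes1 (-0.013) in the LV. The LV value of Notch1 turned with a sex term (0.016), in edgeR (0.0099) and in DESeq2 (0.011), and its RV value in edgeR (-0.00051). Without mice 6 and 7, Jag1 in the RV (-0.21), and Dll1 (-0.53) and Hes1 (-0.040) in the difference turned. With the sex term and without mice 6 and 7 together, Dll1 (-0.53) and Hes1 (-0.045) turned in the difference, as did Hes1 (-0.0025) with library weights and Jag1 (0.12) without mice 6, 8 and 11. Leaving out each library in turn, RV values ranged from -0.17 to 0.099 for Dll4, -0.12 to 0.11 for Jag1, -0.26 to 0.067 for Jag2, -0.082 to 0.11 for Notch1 and -0.028 to 0.15 for Hes1. LV values ranged from -0.087 to 0.079 for Notch1, -0.12 to 0.12 for Notch4, -0.11 to 0.074 for Heyl and -0.054 to 0.13 for Hes1. Differences ranged from -0.35 to 0.82 for Dll1, -0.18 to 0.036 for Jag1, -0.054 to 0.11 for Notch1, -0.0055 to 0.26 for Notch4 and -0.030 to 0.082 for Hes1. Dll1 had the fewest reads, 0 to 38 per library.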

Other observations

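Endothelial marker lists other than the arterial list were also measured beside the members. Of 6 capillary markers, Gpihbp1, which anchors lipoprotein lipase to the capillary wall, rose in the RV (0.69, adjusted p = 4.57e-05) and in the LV (0.38, adjusted p = 0.00625), and Rgcc (0.72) and Fabp4 (0.40) rose in the RV. Aplnr, the apelin receptor, fell in both ventricles, by 1.07 on the log2 scale in the RV (adjusted p = 3.49e-06) and by 1.25 in the LV (adjusted p = 3.70e-05), with no overlap in either. Of 5 tip cell markers, Kcne3 rose in the RV (1.81, adjusted p = 0.00209) and 0 passed in the LV. Of 4 endocardial markers, 0 passed in either ventricle (limma). Of 3 measured venous markers, Vwf rose in the LV (0.81, adjusted p = 0.0280). Of 4 measured lymphatic markers, Flt4 rose in the RV (0.46, adjusted p = 0.0103) and 0 passed in the LV.

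Of markers of other cells, Pdgfra was the 1 of 6 fibroblast markers to fall in the RV (-0.45, adjusted p = 0.0343), and 0 passed in the LV. Hbb-bt, a hemoglobin gene with close copies, was the 1 of 4 measured red blood cell markers to rise in the RV (0.64, adjusted p = 0.0221), and 0 passed in the LV. Of 4 epicardial and 6 macrophage markers, 0 passed in either ventricle (limma). At an unadjusted p under 0.05 in limma, the lists with 0 calls held 2 epicardial markers (Wt1 and Msln) and 1 endocardial marker (Nfatc1) in the RV. In the LV they held 2 tip cell markers (Kcne3 and Pgf), 1 lymphatic marker (Pdpn) and 3 red blood cell markers (Hba-a1, Hbb-bt and Alas2), and 0 of the fibroblast and macrophage markers. These counts take both directions together. Over all genes tested, 4619 of 13660 in the RV and 3334 of 13528 in the LV had an unadjusted p under 0.05 in limma.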
